A study of Rattus norvegicus with 18 samples.

Results

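Akr1b1, Ndrg1, Sbsn, Rbpms, F13a1, Hdac9 and Klf12 are 7 genes, out of 17327 in the microglia tables, whose RNA differed between primary rat microglia treated with Aβ42 fibrils and those treated with Aβ40 fibrils. They were picked by that difference: 5 of them, Akr1b1, Ndrg1, Sbsn, Rbpms and F13a1, were higher with Aβ42 fibrils, and the other 2, Hdac9 and Klf12, were higher with Aβ40 fibrils. The difference between the fibrils in microglia is therefore given below as a description without a test. The tests concern the mean response of microglia to both fibrils, all astrocyte libraries and the untreated cells. Of these, the mean response rests on the treated microglia libraries that chose the genes, although in another contrast. All 7 genes are listed in the tables of both cell types.

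The RNA came from wild-type (WT) Sprague–Dawley rats at postnatal day 2 (P2), whose cortical glia were grown together, and microglia and astrocytes were then separated by shaking, so that each is a primary culture and not a cell line. In serum-free medium, microglia and astrocytes were each left untreated (control) or exposed to fibrils of synthetic Aβ42 or Aβ40, the longer and the shorter form of the amyloid peptide, at 25 µM for 24 h. The 6 groups have 3 libraries each, 18 in all. No label says whether the 3 replicates of a group were separate cultures or animals, so the p-values measure the spread between these libraries, which may be technical.

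The proteins made by these genes do unrelated work. Akr1b1 encodes aldose reductase, the enzyme that opens the polyol pathway by reducing glucose to sorbitol and that also clears reactive aldehydes, and Ndrg1 encodes a cytoplasmic stress protein known for its induction by hypoxia. Sbsn encodes suprabasin, a secreted protein best known from the epidermis, Rbpms an RNA-binding protein that directs splicing in smooth muscle, and F13a1 the catalytic A subunit of coagulation factor XIII, a transglutaminase that crosslinks fibrin and is also made by macrophages. Hdac9 encodes a class IIa histone deacetylase that represses MEF2 transcription factors, and Klf12 a zinc finger repressor of the Krüppel-like family. Microglia are the resident macrophages of the brain, and astrocytes are the glia that support neurons and their synapses.

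The promoters of Sbsn, F13a1, Hdac9 and Klf12 are shown because the first pair belongs to the genes higher with Aβ42 fibrils in microglia and the second pair to those higher with Aβ40 fibrils. The sequences are those of RefSeq on the rat build GRCr8, and they run 5′ to 3′ on the strand of the gene from 250 bases before the start of transcription to 50 bases after. RefSeq promoters were matched by symbol for 4 of the 7 genes, and those of Akr1b1, Ndrg1 and Rbpms are not shown. Sbsn has a pair of starts, of which the second is printed. Capitals mark matches, on either strand, to 5 short motifs. These are ACGTG, the core of the hypoxia response element, TTGCNNAA of C/EBP factors, TGANTCA of AP-1, TGACNNNGC of the antioxidant response element and the GC box GGGCGG.
Sbsn, chr1:95128731-95129030, plus strand: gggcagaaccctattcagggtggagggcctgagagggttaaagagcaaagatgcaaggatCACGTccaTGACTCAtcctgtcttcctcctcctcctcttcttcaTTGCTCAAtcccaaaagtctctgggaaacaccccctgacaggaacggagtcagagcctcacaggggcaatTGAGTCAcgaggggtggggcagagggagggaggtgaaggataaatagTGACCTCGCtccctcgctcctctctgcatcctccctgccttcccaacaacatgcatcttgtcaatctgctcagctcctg
F13a1, chr17:28020947-28021246, plus strand: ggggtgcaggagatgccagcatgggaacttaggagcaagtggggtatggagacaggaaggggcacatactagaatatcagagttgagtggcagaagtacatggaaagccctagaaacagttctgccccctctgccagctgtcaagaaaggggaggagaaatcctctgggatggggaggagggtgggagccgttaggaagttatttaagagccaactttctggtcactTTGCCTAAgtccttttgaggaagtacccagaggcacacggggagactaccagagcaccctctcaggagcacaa
Hdac9, chr6:57052522-57052821, minus strand: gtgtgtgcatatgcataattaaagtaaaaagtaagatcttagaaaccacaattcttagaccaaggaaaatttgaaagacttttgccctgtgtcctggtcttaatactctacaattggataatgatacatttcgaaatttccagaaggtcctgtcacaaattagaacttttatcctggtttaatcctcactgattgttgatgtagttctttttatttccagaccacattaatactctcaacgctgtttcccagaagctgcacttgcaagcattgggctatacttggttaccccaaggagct
Klf12, chr15:83395513-83395812, minus strand: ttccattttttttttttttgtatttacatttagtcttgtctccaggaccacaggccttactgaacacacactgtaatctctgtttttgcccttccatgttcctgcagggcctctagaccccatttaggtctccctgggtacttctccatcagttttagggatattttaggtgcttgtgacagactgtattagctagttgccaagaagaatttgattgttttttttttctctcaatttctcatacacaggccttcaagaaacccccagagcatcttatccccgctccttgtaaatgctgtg

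The second Sbsn promoter held 4 of the 5 motifs. ACGTG began 190 bases before the start, as its reverse complement, TGANTCA began 182 and 76 bases before, TTGCNNAA 146 bases before and TGACNNNGC 29 bases before, and none of these matches overlapped another. The F13a1 promoter held TTGCNNAA 23 bases before its start and no other. No motif of the 5 was in the Hdac9 or Klf12 window, nor in the window of the first Sbsn start at chr1:95106140-95106439. Of 33469 rat promoters of the same length, 19.3% held ACGTG, 10.6% TTGCNNAA, 7.33% TGANTCA, 12.1% TGACNNNGC and 33.1% GGGCGG. A match of letters is a description of the sequence and does not show that a factor binds there.

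Between 2271834 and 22274367 counts fell on genes in the microglia libraries, and between 3674043 and 19013919 in the astrocyte libraries. Microglia Aβ42 replicate 1, with 2613723 counts against 17687416 or more in the other Aβ42 replicates, stood apart from them. Its counts differed from theirs by 22.4 and 22.9 chi-square units per degree of freedom, while those of replicates 2 and 3 differed by 7.66. Among the astrocytes, control replicate 2 differed from the other controls by 28.3 and 44.3 units, against 10.7 between those. Of its counts, 34.2% were on no gene or on several, the highest share of all libraries. Levels are given as scaled CPM, that is counts scaled to a common library total (CPM), with further scaling by the TMM method within a cell type, and 3 counts, taken as the limit of detection, correspond to 0.135 to 1.32 CPM before that further scaling in microglia. Microglial markers summed to between 6692 and 7949 scaled CPM in control microglia, 2027 to 2975 with Aβ42 fibrils and 2539 to 3039 with Aβ40 fibrils, against 139.4 to 450.9 in astrocytes. The astrocyte markers summed to 188.0 to 236.7 in microglia and 5202 to 8676 in astrocytes, and those of the oligodendrocyte lineage to 1840 to 2576 in microglia. No listed marker of microglia or astrocytes was at 0 in the cells it names. In RNA from whole cultures, fewer cells of a type and less RNA per cell cannot be told apart.

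Aldose reductase RNA was raised by both fibrils and most by Aβ42. Akr1b1 stood at 121.1, 110.5 and 126.9 scaled CPM in control microglia replicates 1, 2 and 3, at 832.5, 996.0 and 1150 with Aβ42 fibrils, and at 365.6, 352.9 and 350.3 with Aβ40 fibrils. The groups did not overlap, with the control lowest, Aβ40 between and Aβ42 highest. The fitted log2 difference between Aβ42 and Aβ40 was 1.48 ± 0.12 (SE), or 2.79-fold, and it remained between 1.36 and 1.59 when each microglia library was left out in turn. It came 55th from the highest among the 10837 genes tested.

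Ndrg1 separated the fibrils in another way, because its level with Aβ42 fibrils lay near the control. The control libraries had 334.0, 361.4 and 334.2 scaled CPM, the Aβ42 libraries 295.5, 305.4 and 341.6, and the Aβ40 libraries 153.0, 153.2 and 155.8. The control and Aβ42 libraries overlapped and all 3 Aβ40 libraries lay below both. The Aβ42 libraries were 2.04-fold above the Aβ40 libraries, a log2 difference of 1.03 ± 0.10 (SE) that stayed between 0.97 and 1.07 with single libraries left out.

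Suprabasin was scarce in untreated microglia. Sbsn had 6, 2 and 7 counts in the control libraries, 34, 285 and 325 with Aβ42 fibrils and 17, 14 and 3 with Aβ40 fibrils. As scaled CPM these were 0.707, 0.386 and 1.07 in the control, 13.6, 12.3 and 18.5 with Aβ42 and 4.10, 3.13 and 1.38 with Aβ40. Its groups did not overlap, and Aβ42 replicate 1, although about as shallow as the Aβ40 libraries, lay with the other Aβ42 replicates. The log2 difference between the fibrils was 2.26 ± 0.30 (SE), the 5th highest of all genes tested, and ranged from 2.04 to 2.57 with single libraries left out. Keratinocyte markers, of which 4 of 6 were in the tables, summed to 1.65 to 2.12 scaled CPM in control microglia, 2.79 to 3.51 with Aβ42 and 3.58 to 9.19 with Aβ40. Krt5 was at 0 in both fibril groups, and Krt14 had a mean of 0 in the control, 1.41 with Aβ42 and 2.70 with Aβ40. In the same order of groups, Krt10 had means of 1.65, 1.45 and 3.16, and Krt1 of 0.17, 0.31 and 0.16. The part of these markers in the Sbsn values was not tested.

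Rbpms had the smallest difference between the fibrils of the 7 genes beside a large response to both. Its level was 4.71, 2.51 and 3.05 scaled CPM in control microglia, 45.6, 43.9 and 45.8 with Aβ42 fibrils and 34.5, 28.2 and 26.2 with Aβ40 fibrils. The Aβ42 libraries lay close together above the Aβ40 libraries, and both lay far above the control. The log2 difference between the fibrils was 0.59 ± 0.16 (SE), or 1.51-fold, which placed the gene 1237th from the highest, and the range with single libraries left out was 0.52 to 0.72.

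F13a1 was at the limit of detection in untreated microglia, with 1, 2 and 0 counts. It had 9, 70 and 80 counts with Aβ42 fibrils, which is 3.60, 3.03 and 4.56 scaled CPM, and 4, 6 and 1 counts with Aβ40 fibrils, which is 0.965, 1.34 and 0.460 scaled CPM. The fibril groups did not overlap, and the smallest Aβ40 value rests on 1 count in the shallowest library. Set against the mean CPM of 3 counts in each control library, 0.463, the Aβ42 mean was at least 8.06-fold higher. The log2 difference between the fibrils was 1.87 ± 0.44 (SE), the 17th highest, with a range of 1.63 to 2.22 with single libraries left out. Perivascular macrophage markers, of which 4 of 5 were in the tables, summed to 1024 to 1123 scaled CPM in control microglia, 340.7 to 430.4 with Aβ42 and 302.0 to 313.5 with Aβ40, with Cd163 at 0 throughout. Mrc1 carried this fall, from a mean of 968.7 in the control to 66.2 with Aβ42 and 82.2 with Aβ40, and Lyve1 went from 4.94 to 2.70 and 2.61. Pf4, alone of these 4, had the order of F13a1, at 97.6 in the control, 306.8 with Aβ42 and 221.5 with Aβ40. The part of these markers in the F13a1 values was not tested.

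Hdac9 fell with both fibrils, further with Aβ42. The control libraries had 70.9, 67.4 and 76.1 scaled CPM, the Aβ42 libraries 11.2, 8.66 and 7.64 and the Aβ40 libraries 25.6, 25.7 and 18.8. The groups did not overlap and their order was that of Akr1b1 turned around. The log2 difference of Aβ42 from Aβ40 was -1.47 ± 0.17 (SE), the 40th lowest of all genes tested, and stayed between -1.57 and -1.35.

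Klf12 was low with Aβ42 fibrils alone. It had 13.5, 15.5 and 11.3 scaled CPM in control microglia, 6.80, 5.11 and 4.33 with Aβ42 fibrils and 13.3, 16.3 and 17.5 with Aβ40 fibrils. The Aβ40 and control libraries overlapped, and the Aβ42 libraries lay below both. The log2 difference of Aβ42 from Aβ40 was -1.63 ± 0.21 (SE), the 21st lowest, with a range of -1.75 to -1.49. Leaving out Aβ42 replicate 1 left the difference of every one of the 7 genes in the same direction, at 1.59 for Akr1b1, 1.07 for Ndrg1, 2.28 for Sbsn, 0.58 for Rbpms, 1.86 for F13a1, -1.56 for Hdac9 and -1.70 for Klf12. These values and the ranges above come from the libraries that chose the genes. They describe the weight of single libraries and are no separate support for the difference.

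**Figure D1:**
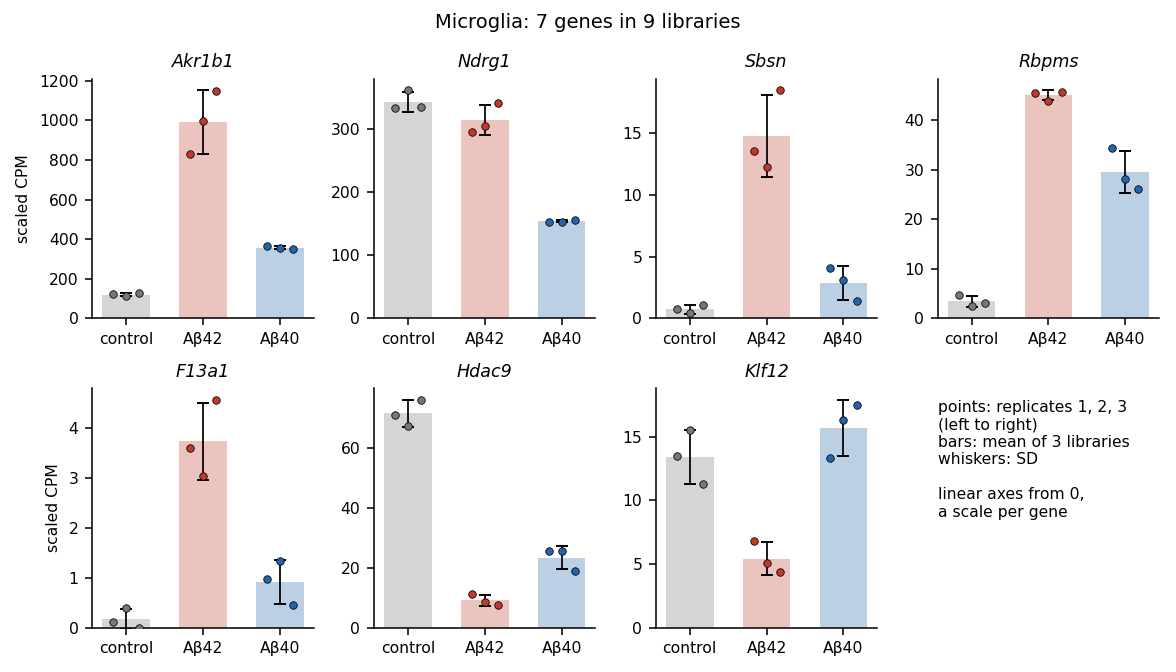
Level of each of the 7 genes in the 9 microglia libraries, in scaled CPM on linear axes from 0, one scale for each gene; points are libraries, bars the mean of 3 and whiskers the SD. Akr1b1, Sbsn, Rbpms and F13a1 rise from control through Aβ40 to Aβ42, Hdac9 runs the other way, Ndrg1 is low with Aβ40 only, and Klf12 is low with Aβ42 only.

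The comparison of microglia treated with either fibril and untreated microglia asks how the 7 genes responded to fibrils in general. This mean of both treatments is another contrast than the difference that chose the genes. It rests on the same treated libraries, which differ in depth, so the contrasts are not fully independent. Akr1b1 and Rbpms rose, and Ndrg1, Hdac9 and Klf12 fell (edgeR quasi-likelihood test with Benjamini-Hochberg adjustment over 10837 genes). Over all genes, 23.8% were higher and 25.7% lower in this comparison. Sbsn and F13a1 met the filter on low counts only through the Aβ42 libraries that chose them, so that their values are given as a description and not counted here. Rbpms rose 10.3-fold (log2 difference 3.36 ± 0.19 SE, adjusted p = 1.97e-08 by edgeR) and Akr1b1 4.98-fold (2.32 ± 0.12, adjusted p = 8.46e-09). The Sbsn libraries with either fibril lay 9.08-fold above the control (3.18 ± 0.39). F13a1 is given no value here, since its control is at the limit of detection, and it could not be fitted after thinning to equal depth or with 10 counts required in every library. In the other direction, Hdac9 was 4.99-fold lower (-2.32 ± 0.12, adjusted p = 1.23e-08 by edgeR). Ndrg1 was 1.56-fold lower (-0.64 ± 0.08, adjusted p = 3.25e-05 by edgeR) and Klf12 1.52-fold lower (-0.60 ± 0.16, adjusted p = 0.00851). For both, this mean joins a fibril with a low level to one whose libraries overlapped the control. Their fall is thus a part of the difference that chose them, and these p-values are no separate support. Without control replicate 2 the Klf12 difference was -0.49 with adjusted p = 0.051.

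The fitted log2 differences of each fibril from the control are set side by side as a description. They share the control libraries, and the gap between the fibrils in microglia is the difference that chose the genes, so its direction is no new result. In microglia they were 3.06 with Aβ42 and 1.58 with Aβ40 for Akr1b1, 4.32 and 2.05 for Sbsn, and 3.66 and 3.07 for Rbpms. They were -3.05 and -1.58 for Hdac9, -0.13 and -1.16 for Ndrg1, and -1.42 and 0.21 for Klf12. Akr1b1, Sbsn, Rbpms and Hdac9 thus had differences of 1 sign with both fibrils, larger with Aβ42 by the choice of the genes. Those of Ndrg1 with Aβ42 and of Klf12 with Aβ40 were small.

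**Figure D2:**
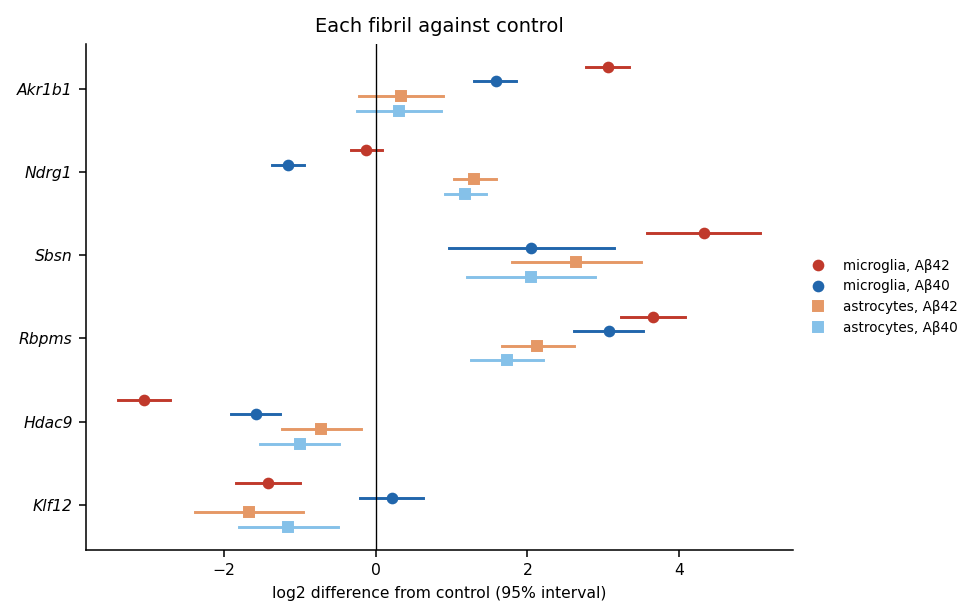
Fitted log2 difference of each fibril from control for 6 of the 7 genes, circles for microglia and squares for astrocytes, Aβ42 in red shades and Aβ40 in blue shades, with 95% intervals; F13a1 is left out because its controls are at the limit of detection. In microglia the Aβ42 and Aβ40 circles stand apart for Akr1b1 (3.06 and 1.58) and for Hdac9 (-3.05 and -1.58), the difference that chose the genes. The astrocyte squares of each gene lie near each other, as at 0.33 and 0.31 for Akr1b1.

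In astrocytes, which played no part in the choice, Ndrg1, Sbsn and Rbpms rose with the fibrils and Hdac9 and Klf12 fell. F13a1 had between 0 and 3 counts in every astrocyte library, did not pass the filter on low counts, and is given no fold. Of the 6 genes tested, 3 were higher and 2 lower in both fibrils against control, where 18.1% of the 11690 genes tested were higher and 22.5% lower (edgeR quasi-likelihood test). The gene that did not pass was Akr1b1, at 0.32 ± 0.22 (SE) on the log2 scale with adjusted p = 0.271 by edgeR.

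Ndrg1 rose with both fibrils in astrocytes, whereas in microglia it was low with Aβ40 fibrils only. It had 45.4, 39.7 and 47.8 scaled CPM in control astrocytes, 110.9, 115.6 and 102.6 with Aβ42 fibrils and 103.4, 102.8 and 95.9 with Aβ40 fibrils. All treated libraries lay above the control libraries, and the fibril groups overlapped. The rise was 2.37-fold (log2 difference 1.24 ± 0.11 SE, adjusted p = 5.54e-06 by edgeR). In microglia the log2 differences from control were -0.13 with Aβ42 and -1.16 with Aβ40.

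Sbsn and Rbpms rose in astrocytes. Sbsn had 4.73, 3.11 and 4.29 scaled CPM in control astrocytes, 32.3, 26.3 and 17.5 with Aβ42 and 9.15, 24.1 and 16.9 with Aβ40, a rise of 5.07-fold (2.34 ± 0.36 on the log2 scale, adjusted p = 0.000325 by edgeR). Rbpms had 12.2, 11.7 and 8.09 in the control, 50.9, 46.1 and 38.7 with Aβ42 and 29.3, 41.6 and 31.6 with Aβ40, a rise of 3.82-fold (1.93 ± 0.20, adjusted p = 1.67e-05 by edgeR). For both genes the treated libraries were all above the control, and 1 Aβ40 library, replicate 2, reached into the range of the Aβ42 libraries. Keratinocyte markers summed to 3.17 to 10.3 scaled CPM in control astrocytes and 2.13 to 3.74 in treated ones, and their part in the Sbsn values was not tested.

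Hdac9 and Klf12 were low in astrocytes already without fibrils. Hdac9 had 5.84, 7.66 and 4.85 scaled CPM in the control, 4.05, 3.34 and 3.24 with Aβ42 and 2.39, 3.42 and 2.86 with Aβ40, and was 1.81-fold lower with fibrils (-0.86 ± 0.21, adjusted p = 0.00637 by edgeR). Klf12 had 3.62, 7.42 and 3.45 in the control, 1.51, 1.31 and 1.44 with Aβ42 and 2.18, 2.03 and 1.99 with Aβ40, and was 2.66-fold lower (-1.41 ± 0.27, adjusted p = 0.00144 by edgeR). Both fibril groups lay below the control for both genes, and Klf12, which kept its control level with Aβ40 fibrils in microglia, had a log2 difference from control of -1.15 with Aβ40 and -1.67 with Aβ42 in astrocytes. Without control replicate 2 the Klf12 difference was -1.02 and that of Hdac9 -0.65, and both still passed. When libraries were thinned to the same depth, the Hdac9 difference was -0.78 with adjusted p = 0.0715.

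Akr1b1 varied more between untreated astrocyte libraries than with treatment. The control libraries had 185.3, 90.5 and 221.2 scaled CPM, the Aβ42 libraries 209.9, 220.0 and 199.2 and the Aβ40 libraries 202.5, 201.9 and 212.7. Control replicate 2 was low, and all groups overlapped. Without that library the difference of both fibrils from control was 0.03.

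**Figure D3:**
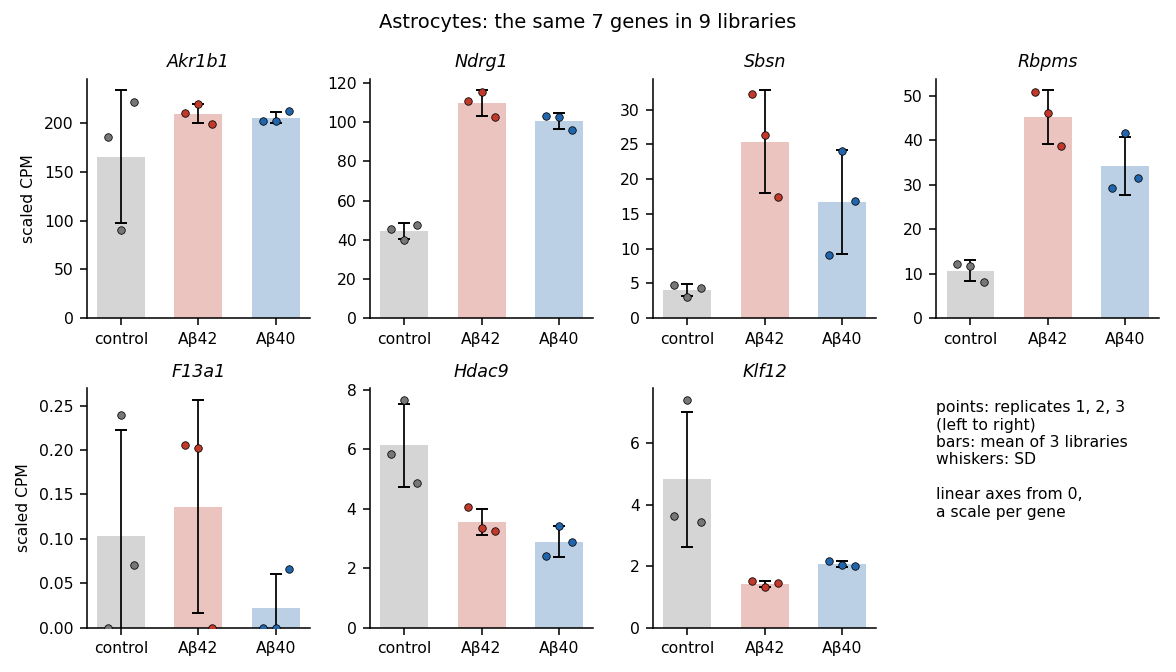
Level of each of the 7 genes in the 9 astrocyte libraries, drawn as for microglia in scaled CPM on linear axes from 0. Ndrg1, Sbsn and Rbpms lie above control with both fibrils, Hdac9 and Klf12 below, and the F13a1 points rest on 0 to 3 counts each.

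The contrast that chose the genes in microglia was then asked of astrocytes. No gene of the 6 tested passed (edgeR quasi-likelihood test, 0 of 6 at an unadjusted p under 0.05, and 0 by DESeq2), in a comparison where 0.0599% of the 11690 genes were higher and 0.0257% lower with Aβ42. The difference of Aβ42 from Aβ40 on the log2 scale was 0.03 for Akr1b1, with a 95% interval from -0.52 to 0.57. For Ndrg1 it was 0.12, from -0.14 to 0.38, and for Hdac9 0.28, from -0.23 to 0.79. Sbsn had 0.59, from -0.10 to 1.28, and Rbpms 0.40, from -0.02 to 0.82. Klf12 had -0.52, from -1.23 to 0.18. Its Aβ42 libraries, 1.31 to 1.51 scaled CPM on 12 to 22 counts, lay below its Aβ40 libraries, 1.99 to 2.18 on 21 to 38 counts. How many of all genes were separated in this way was not counted, and the Klf12 difference was 0.10 after thinning to equal depth. Because the microglia values chose the genes, the difference between the cell types in this contrast was not tested.

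**Figure D4:**
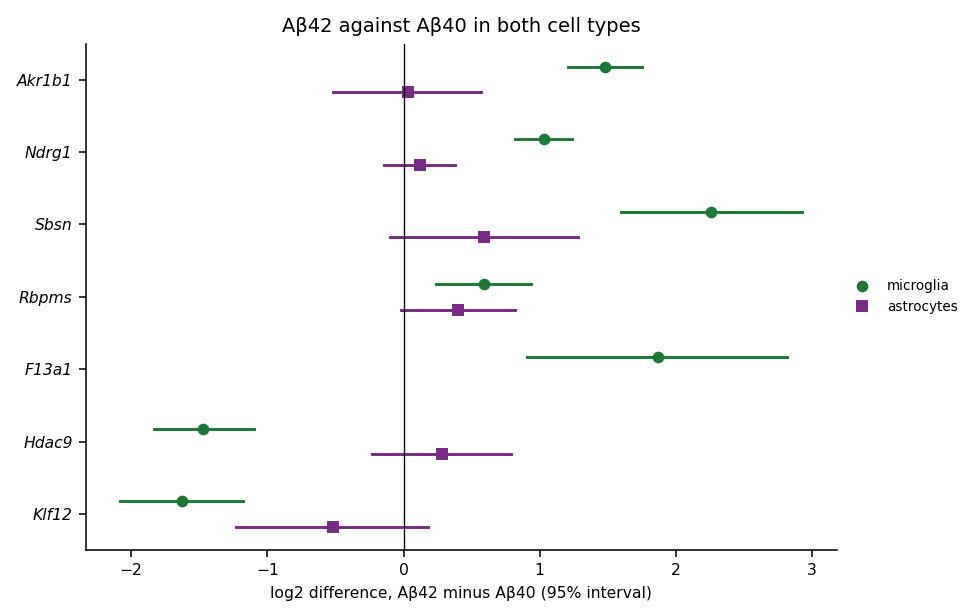
Fitted log2 difference of Aβ42 from Aβ40 for each gene, green circles for microglia and purple squares for astrocytes, with 95% intervals; the microglia values chose the genes and are a description, and F13a1 was not tested in astrocytes. The astrocyte intervals all include 0; for Rbpms the log2 differences are 0.59 in microglia and 0.40 in astrocytes.

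The level of the genes in untreated cells was compared between the cell types. In the fit of all 18 libraries, Ndrg1, Hdac9 and Klf12 were higher in microglia, Sbsn and Rbpms were lower, and Akr1b1 and F13a1 did not pass, where 34.2% of the 11581 genes tested were higher and 34.5% lower, so that the 5 called of 7 are near the share over all genes. Hdac9 was 14.5-fold higher in microglia (log2 difference 3.86 ± 0.19 SE, adjusted p = 1.56e-12 by edgeR), Ndrg1 9.19-fold (3.20 ± 0.11, adjusted p = 1.7e-14) and Klf12 3.51-fold (1.81 ± 0.24, adjusted p = 2.07e-06). Sbsn was 4.58-fold lower (-2.19 ± 0.55, adjusted p = 0.0016 by edgeR) and Rbpms 2.43-fold lower (-1.28 ± 0.25, adjusted p = 0.000161). For Akr1b1 the difference was -0.23 ± 0.21 with adjusted p = 0.342 by edgeR. It was -0.51 with adjusted p = 0.00126 without astrocyte control replicate 2, -0.50 with adjusted p = 0.0348 when scaled by library totals, and 0.04 without astrocyte control replicate 3. F13a1 was at the limit of detection in both.

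The order of the 6 groups, on levels scaled over all 18 libraries, differed from gene to gene. Akr1b1 was highest in microglia with Aβ42, at 1117 ± 200 CPM (SD, n = 3), then in microglia with Aβ40, at 395.7 ± 11, and the 4 remaining groups, from 132.8 to 199.0, overlapped each with the next. F13a1 was clear of the limit of detection in microglia with Aβ42, at 4.19 ± 0.91 CPM, and near that limit in microglia with Aβ40, at 1.03 ± 0.50, on 1 to 6 counts. For Ndrg1 and Hdac9 all 3 microglia groups lay above all 3 astrocyte groups, and untreated microglia were highest, at 381.5 ± 19 and 79.4 ± 4.4 CPM, with the Ndrg1 libraries of untreated and Aβ42-treated microglia overlapping. Klf12 was highest in microglia with Aβ40, at 17.4 ± 2.3 CPM, and in untreated microglia, at 14.9 ± 2.4, which overlapped, and microglia with Aβ42, at 6.06 ± 1.3, overlapped untreated astrocytes, at 4.52 ± 2.1. Rbpms was highest in microglia with Aβ42, at 50.6 ± 1.4 CPM, followed by astrocytes with Aβ42, microglia with Aβ40 and astrocytes with Aβ40, at 42.9 ± 5.3, 32.9 ± 5.0 and 32.3 ± 5.8, each overlapping the next, and it was lowest in untreated microglia, at 3.81 ± 1.3. Sbsn, in contrast, was highest in astrocytes with Aβ42, at 24.0 ± 6.7 CPM, which overlapped microglia with Aβ42, at 16.7 ± 3.9, and these overlapped astrocytes with Aβ40, at 15.7 ± 6.9.

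Whether the mean response to the fibrils differed between the cell types was tested as an interaction in the same fit. The treated microglia libraries that chose the genes enter this test. For Ndrg1 and Klf12 the microglia side of the response is part of the difference that chose them, so their p-values here are no separate support. The response differed for 5 of the 6 genes other than F13a1, with 3 responses higher in microglia and 2 lower, where 19.7% and 19.3% of the 11581 genes were so called (edgeR quasi-likelihood test). The response of Akr1b1 was 3.95-fold higher in microglia (log2 difference of responses 1.98 ± 0.25 SE, adjusted p = 4.9e-06 by edgeR), and that of Rbpms 2.67-fold higher (1.42 ± 0.28, adjusted p = 0.000527). Ndrg1, which was low with Aβ40 only in microglia and rose with both fibrils in astrocytes, had a difference of -1.90 ± 0.13 (adjusted p = 1.54e-09 by edgeR). Hdac9, which fell further in microglia, had one of -1.48 ± 0.24 (adjusted p = 6.06e-05 by edgeR). Klf12 had 0.79 ± 0.31 with adjusted p = 0.0499 by edgeR, at the threshold, and it was past the threshold in 10 of 26 other settings, with adjusted p up to 0.237 without astrocyte control replicate 2. For Sbsn the difference of 0.84 ± 0.63, with adjusted p = 0.322 by edgeR, did not pass, and its 95% interval ran from -0.49 to 2.16. F13a1 met the low-count filter of this fit only through the Aβ42 microglia and is given no value.

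Across the 9 microglia libraries, on log2 CPM, Akr1b1 followed Sbsn, F13a1 and Rbpms with Pearson r of 0.96, 0.94 and 0.93, and ran against Hdac9 with r = -0.99. Ndrg1 followed none of the 6 others closely, with r from -0.51 to 0.14. These libraries share 3 treatments, so the values describe the order of the groups and carry no p. By the same measure, the genes most like Akr1b1 were Atf4, a transcription factor of the integrated stress response (r = 0.996), and the glycolytic enzyme gene Pgam1 (0.992). Over the 9 astrocyte libraries those r were 0.761 and 0.968. Near to Rbpms was the proteasome subunit gene Psma6 (0.995 in microglia, 0.863 in astrocytes), and the nearest to Klf12 were Ptprt, a receptor tyrosine phosphatase gene (0.991 and 0.904), and the cadherin gene Cdh6 (0.990 and 0.923).

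Among the neighbours of the other genes, r in astrocytes ran from -0.861 to 0.860. Sbsn was nearest to Adm, which encodes the peptide adrenomedullin (0.977 in microglia, -0.792 in astrocytes), and to Nrbp1 (0.975 and 0.860). Hdac9 was nearest to Pcyt1a, an enzyme gene of phosphatidylcholine synthesis (0.992 and -0.861), and to the clock gene Arntl (0.989 and -0.776). Ndrg1 was nearest to Ap5b1 (0.977 and 0.635) and to Idh1, the cytosolic isocitrate dehydrogenase gene (0.976 and -0.569). F13a1 was nearest to Gdap1l1 (0.983) and Pnrc1 (0.978), without an astrocyte value.

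Relatives and pathway partners of the 7 genes were looked at as 12 lists, tested on Aβ42 against Aβ40 in microglia, where 11.3% of the 10837 genes tested were higher and 9.01% lower and the median log2 difference was 0.014. Of the 67 listed genes tested, 17 were higher and 4 lower. Of those 17, 9 came from 1 list, the genes induced by hypoxia, as Ndrg1 is. All counts below depend on the libraries, since the fits without a single treated library called between 29 and 2986 genes lower and between 69 and 3018 higher, the largest numbers without Aβ42 replicate 1.

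Of 13 hypoxia-induced genes tested, 9 were higher with Aβ42 and 0 lower, with a median of 0.68, and between 4 and 9 were higher in the fits that left out a library, with 4 without Aβ40 replicate 1. Egln3, the prolyl hydroxylase gene that is itself induced by hypoxia, had 86.4 ± 13.8 scaled CPM with Aβ42 and 34.8 ± 6.07 with Aβ40 (SD, n = 3, log2 difference 1.30, adjusted p = 0.00284 by edgeR). Vegfa, the vascular growth factor, had 223.8 ± 20.7 and 97.6 ± 9.79 (1.20, adjusted p = 0.00429 by edgeR), and Bnip3, a mitophagy receptor, 96.7 ± 17.5 and 45.9 ± 4.07 (1.08, adjusted p = 0.00583). Pgk1, a glycolytic enzyme, had 968.8 ± 128.5 and 591.1 ± 35.6 (0.71, adjusted p = 0.00749 by edgeR). These 4 genes stayed past the threshold in all 6 fits that left out a treated library, and P4ha1 had the smallest difference of the list, 0.14. Against control, 9 of the 13 rose and 1 fell in microglia treated with either fibril, where 23.8% of all genes rose and 25.7% fell. Ndrg1, low with Aβ40 only, fell on this mean. In astrocytes 0 of 13 passed between the fibrils by edgeR (0 also at an unadjusted p under 0.05 and 0 by DESeq2), with a median of 0.07, and 1 rose and 4 fell with either fibril, where Ndrg1 rose and 18.1% of all genes rose and 22.5% fell.

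The relatives of aldose reductase were higher with Aβ42 in 3 of 7 cases and lower in 0, with a median of 0.55. These were Akr7a2, with the largest difference (1.02, adjusted p = 0.0271 by edgeR), Akr1a1 (0.60, adjusted p = 0.045) and Akr1b8 (0.55, adjusted p = 0.0431), the close paralog of Akr1b1. Akr1b8 rose from 51.7 ± 13.1 scaled CPM in the control to 2180 ± 432 with Aβ42 and 1492 ± 34.2 with Aβ40. Akr1e2 had the smallest difference, 0.18. All 3 calls were lost in each of the 5 fits without a treated library other than Aβ42 replicate 1. Of the 6 osmotic stress genes, a group in which Akr1b1 is itself counted, 0 passed between the fibrils by edgeR, 3 had an unadjusted p under 0.05 and 1 passed by DESeq2, with Hspa4l at 0.40 and Nfat5 at -0.50 as the extremes. With either fibril against control, 4 of the 6 rose and 2 fell, against 23.8% and 25.7% of all genes.

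Dmkn, the neighbour of Sbsn at the suprabasin locus, had 0.208 ± 0.240 scaled CPM in the control, 5.21 ± 1.25 with Aβ42 and 1.99 ± 0.808 with Aβ40, the same order as Sbsn. Its log2 difference was 1.40, called as higher. Dmkn met the low-count filter, at 1.96 CPM, only through the Aβ42 libraries, and its control mean lay below the 0.463 CPM of 3 counts. Its values are therefore a description and its call is no separate support. The call was lost in the same 5 fits, and in astrocytes the fibril difference of Dmkn was 0.25 and did not pass. Among the 3 NDRG relatives 0 passed by edgeR, 1 had an unadjusted p under 0.05 and 1 passed by DESeq2, Ndrg4 having 0.58 and Ndrg3 0.04. The Rbpms paralog Rbpms2 had 0.06 and did not pass either.

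Of the 2 transglutaminases tested beside F13a1, Tgm1 was lower with Aβ42 (-0.44, adjusted p = 0.0328 by edgeR) at 51.2 ± 4.63 scaled CPM against 69.7 ± 3.56, from 0.671 ± 0.264 in the control. Among 6 coagulation factors 0 passed by edgeR and 0 by DESeq2, and 2 had an unadjusted p under 0.05, with F10 at -0.05 and F5 at -0.82 as the extremes, and 4 were lower without Aβ42 replicate 1, a fit in which 26.8% of all genes were lower. Of 6 alternative activation genes of macrophages, a group with which F13a1 is often listed, Ccl22 was lower with Aβ42 (-1.36, adjusted p = 0.00284 by edgeR), at 34.3 ± 3.51 against 86.7 ± 7.70, and it held in all 6 fits without a treated library. Arg1 had the highest difference of that list, 1.36, and did not pass. At 0.232 scaled CPM in the control and 1.39 with Aβ40, it met the low-count filter only through the Aβ42 libraries, so its value is a description.

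Of 8 other histone deacetylases, Hdac10 (0.80, adjusted p = 0.0337 by edgeR) and Hdac5 (0.67, adjusted p = 0.0403) were higher with Aβ42, and Hdac4, which like Hdac9 and Hdac5 is of class IIa, was lower (-0.54, adjusted p = 0.0259). Of the 2 MEF2 factors tested, partners of the class IIa enzymes, 0 passed by edgeR or by DESeq2 and 1 had an unadjusted p under 0.05, with a median of -0.54, and both were lower without Aβ42 replicate 1, beside the same 26.8% of all genes. Of 12 Krüppel-like factors, Klf7 was lower as Klf12 was (-1.45, adjusted p = 0.0165 by edgeR), at 20.4 ± 11.2 scaled CPM against 49.4 ± 14.1, and Klf16 (1.16, adjusted p = 0.0321) and Klf15 (1.08, adjusted p = 0.0144) were higher. Without Aβ42 replicate 1, 4 were higher and 5 lower, where 27.1% of all genes were higher and 26.8% lower. The calls of Tgm1 and of the histone deacetylases were lost in each of the 5 fits without another treated library, and so were those of the Krüppel-like factors except Klf7, which passed in 1 of them. In astrocytes, 0 of the 65 genes of the 12 lists tested passed in Aβ42 against Aβ40 by edgeR, 4 had an unadjusted p under 0.05, and 0 passed by DESeq2.

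**Figure D5:**
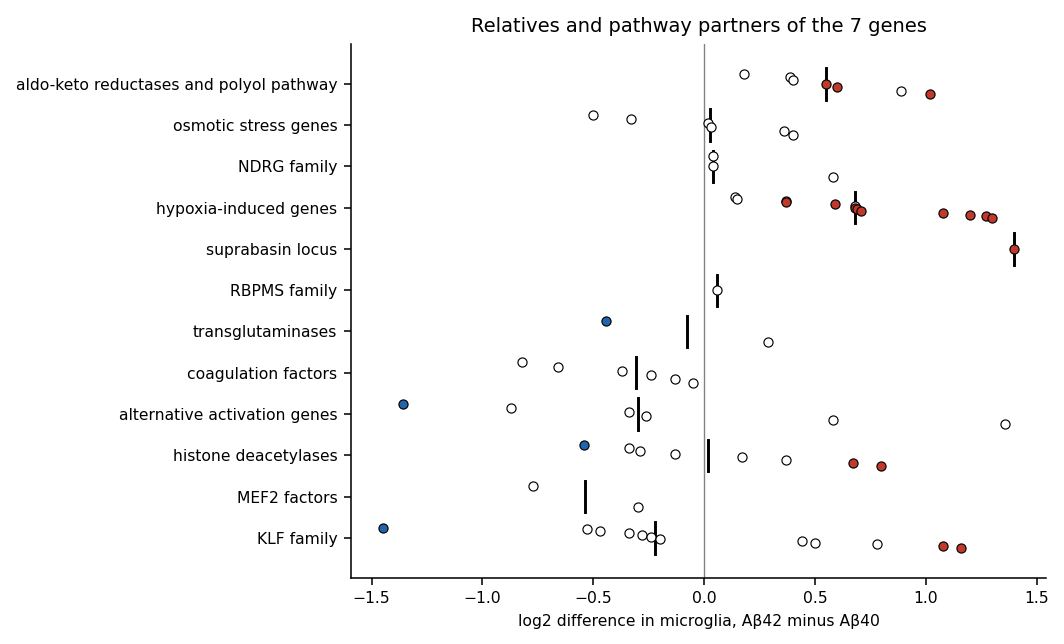
Log2 difference of Aβ42 from Aβ40 in microglia for the relatives and pathway partners of the 7 genes, 1 point for each gene tested and 1 row for each list; red and blue points passed the test as higher and lower, white points did not, and black bars are medians. Of the 13 hypoxia-induced genes 9 are red, with a median of 0.68, while coagulation factors hold none.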

How the data were processed

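RNA of primary rat microglia and astrocytes was sequenced from stranded mRNA libraries. Reads were aligned by the authors to rn5 with STAR, and the submitters' processing notes also name Salmon and DESeq2, without versions. The deposited values are raw counts, 1 whole number per gene symbol and library. Reads on no gene or on several, 21.7% to 34.2% of a library, were left out. How reads shared by close paralogs such as Akr1b1 and Akr1b8 were assigned is not given in the sources used here, and their counts are uncertain to that extent.

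Groups were taken from the labels. Counts were scaled by TMM, filtered with filterByExpr and fitted with edgeR 4.0.16 (glmQLFit, glmQLFTest, R 4.3.3), 9 libraries of a cell type together, or all 18 for comparisons between cell types, with Benjamini-Hochberg adjustment and a threshold of 0.05. Intervals are 95% by the t distribution of the fit. Counting error is largest at low counts, and a group at 3 counts or fewer gives a bound only. The scripts were tested on simulated data. Alternatives were DESeq2 1.42.0, other scalings and filters, thinning to equal depth, a replicate block and leaving out each library.

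The 7 genes and the lists were chosen with earlier results of these data known. Named from each list were genes past the threshold that stayed so without Aβ42 replicate 1 and in at least 3 of the other 5 fits without a treated library, and the highest and lowest of lists of 3 or more. Akr1a1, Akr1b8, Dmkn, Rbpms2, Tgm1, Hdac5 and Klf15 were named after their values were seen, as members of small counts. For each of the 7 genes, the 2 most like it by Pearson r were named (log2 CPM, prior count 2), except 1 that is not reported here. Promoters came from RefSeq tables of GRCr8, a build other than that of the counts, which were matched by symbol alone.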

Additional observations from a re-analysis of the deposited data

Results flagged for a closer look

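The mean response to both fibrils differed between microglia and astrocytes for 5 of the 6 genes other than F13a1 by the interaction in edgeR's quasi-likelihood fit of 18 libraries. Over all 11581 genes tested, 19.7% were called higher in microglia and 19.3% lower. Klf12, among the 5, was at the threshold (adjusted p = 0.0499 by edgeR). For Klf12 and Ndrg1 the microglia side of the response is part of the difference that chose them, so their calls are no separate support. The log2 difference of responses, microglia minus astrocytes, was 1.98 for Akr1b1, -1.90 for Ndrg1, 1.42 for Rbpms, -1.48 for Hdac9 and 0.79 for Klf12. All but Klf12 stayed past the threshold in each of 26 other settings, and Klf12 did so in 10 of 26.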

How the results depend on the processing

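In microglia with both fibrils, Akr1b1 and Rbpms stayed higher and Ndrg1 and Hdac9 lower in all 17 other settings. Klf12 was past the threshold as lower in 16 of 17. The mean microglia response of Ndrg1 and Klf12, which also enters the difference of responses, is part of the difference that chose them. Over all genes, 23.8% were higher and 25.7% lower in the main fit. Sbsn and F13a1 are not counted, since they met the low-count filter only through the Aβ42 libraries that chose them. A filter of 10 counts in every library removes both. In astrocytes with both fibrils, 1 gene in place of 2 was lower after thinning, and 3 higher and 2 lower remained in every fit without a library. Untreated microglia against astrocytes had 1 lower in place of 2 with the filter of 10 counts, and 3 higher and 2 to 3 lower without single libraries, and Akr1b1 passed with library totals (-0.50, adjusted p = 0.0348 by edgeR). For the difference of responses, Akr1b1, Rbpms, Ndrg1 and Hdac9 passed in all 26 other settings and Klf12 in 10 of 26. Over all genes, 19.7% were higher and 19.3% lower in the main fit, and F13a1 is not counted. Aβ42 against Aβ40 in astrocytes had 0 genes higher and 0 lower without single libraries, where 0.0599% and 0.0257% of all genes were so called in the main fit. Values with no call turned sign for Klf12 (0.10 after thinning) and Akr1b1 (-0.01 without Aβ42 replicate 2) in astrocytes with Aβ42 against Aβ40, and in untreated cells for Akr1b1 (0.04 without astrocyte control replicate 3). Over the fits without single libraries those Akr1b1 values ran from -0.01 to 0.06 and from -0.51 to 0.04. Over all genes in microglia, Aβ42 against Aβ40 gave 1222 higher and 976 lower, which became 360 and 232 after thinning, 400 and 352 with the replicate block, 59 and 47 with the compared groups alone, and 69 to 3018 and 29 to 2986 without single libraries; the cause was not tested.

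The replicate numbers did not pair the libraries. Deviations of same-numbered libraries from their group means correlated at -0.19 to 0.22 in microglia and -0.53 to 0.36 in astrocytes, and 3 and 2 of 9 libraries correlated best with their own number. With the replicate block, the difference of responses for Klf12 had adjusted p = 0.0653 by edgeR. Depth limits F13a1 and Sbsn most: 3 counts are 0.135 to 1.32 CPM in microglia.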
